A study of Mus musculus with 14 samples.

Results

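The Cyp2 cytochromes outside the Cyp2b subfamily were described in the liver of male Apoe-deficient C57BL/6 mice (C57BL/6J in the study's methods). Members were all genes of the count table whose symbol starts with Cyp2, goes on with a subfamily letter other than b and then a digit, which gave 40 of 17552 genes. They fell into 4 Cyp2a, 15 Cyp2c, 8 Cyp2d and 6 Cyp2j genes and 1 gene each of Cyp2e, Cyp2f, Cyp2g, Cyp2r, Cyp2s, Cyp2t and Cyp2u. Of these, 33 had at least 100 counts in both groups together, as did 13291 genes of the table.

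Both groups lacked apolipoprotein E and ate a Western diet. The control group received the diet alone, and the erythrodiol group received it with 10 mg/kg of erythrodiol, a triterpene of the olive. The labels give an age of 8 weeks and 8 weeks of feeding, and the methods of the study give a longer feeding time. RNA of a few mice was pooled for each library, 7 libraries were made per group, and the study deposited 1 count per gene and group, the sum over the 7 libraries. No gene therefore had a replicate check and no test between the diets was possible. "Higher" and "lower" below describe these group sums, and all intervals are 95% intervals that cover counting error only, not the spread between mice or libraries.

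Enzymes of the Cyp2 family are heme-containing monooxygenases of the endoplasmic reticulum that take electrons from the reductase Por. They oxidise drugs, solvents, plant compounds, steroids and fatty acids, and the liver is the main site of many but not all of them. In mice the subfamilies Cyp2a, Cyp2c, Cyp2d and Cyp2j are clusters of near copies made by gene duplication, and several of their genes are expressed more in the liver of one sex under the pattern of growth hormone release.

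Clean reads ranged from 34856340 to 55244294 per control library and from 47669656 to 48058606 per erythrodiol library, and the group columns summed to 122889032 and 124686047 counts. The 6 hepatocyte markers were all abundant, with 9898794 counts of Alb in the control column. The summed level of 6 Kupffer cell and macrophage markers went from 904 CPM (counts scaled to the column total) in the control to 574 with erythrodiol, and 5 of the 6 were past 1.5-fold lower. Bile duct markers went from 116 to 79.1 CPM, with 2 of 5 past 1.5-fold lower. Of 4 neutrophil markers, the 2 with enough counts were past 1.5-fold lower. The other 2 were Ly6g, with 38.98 control and 45.45 erythrodiol counts, and Elane, with 24 and 14. Over all genes 3.13% were past 1.5-fold lower. None of the 5 endothelial, 6 stellate and 5 lymphocyte markers was past 1.5-fold by column totals. Their median log2 ratios were 0.14, -0.04 and 0.11. Relative to genes of like length, explained below, these medians were -0.17, -0.27 and 0.09. On that scale 1, 0 and 3 of these markers were above 0, against 50.0% of genes. The part of these cell types in the values below was not tested, and in whole liver fewer cells of a type and less RNA per cell cannot be told apart. The lung club cell markers Scgb1a1 and Scgb3a2 and the kidney marker Kap had no counts in the table used here. The olfactory marker Omp had 27 control and 17 erythrodiol counts. Of 3 intestine markers with enough counts, 1 was past 1.5-fold lower, Fabp2, with 12791 control and 7834 erythrodiol counts. The 1 pancreas marker with enough counts was not past 1.5-fold, and Ctrb1 had 8 and 42 counts.

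RefSeq (GRCm38.p6) gave 35 start sites for 33 of the 40 members, and the 250 bases before the start are shown for 6 genes that the results turn on. Cyp2a4 (chr7:26306942-26307191, plus strand) and Cyp2a5 (chr7:26835089-26835338, plus strand) are shown because they are near copies whose difference between the diets was unequal. Capitals mark the bases by which the windows differ, those at the outer ends coming from starts annotated 1 base apart.
Cyp2a4: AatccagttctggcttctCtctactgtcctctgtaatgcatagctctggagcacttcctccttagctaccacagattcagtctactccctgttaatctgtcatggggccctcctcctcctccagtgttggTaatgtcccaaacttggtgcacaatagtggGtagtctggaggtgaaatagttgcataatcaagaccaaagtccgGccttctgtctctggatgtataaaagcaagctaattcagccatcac
Cyp2a5: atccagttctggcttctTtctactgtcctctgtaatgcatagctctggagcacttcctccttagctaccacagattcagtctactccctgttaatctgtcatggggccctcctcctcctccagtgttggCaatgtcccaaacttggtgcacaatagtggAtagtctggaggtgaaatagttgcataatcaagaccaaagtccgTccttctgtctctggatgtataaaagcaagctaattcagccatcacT
The windows of Cyp2a4 and Cyp2a5 were 97.6% identical, with 4 mismatches. Both held TATAAA, the core of the TATA box, 28 and 29 bases before the start, and both held GTTAAT, a half-site of the liver factor HNF1. Cyp2c37 (chr19:39992174-39992423, plus strand) and Cyp2c50 (chr19:40089429-40089678, plus strand) are shown because both were lower with erythrodiol, and capitals again mark where they differ.
Cyp2c37: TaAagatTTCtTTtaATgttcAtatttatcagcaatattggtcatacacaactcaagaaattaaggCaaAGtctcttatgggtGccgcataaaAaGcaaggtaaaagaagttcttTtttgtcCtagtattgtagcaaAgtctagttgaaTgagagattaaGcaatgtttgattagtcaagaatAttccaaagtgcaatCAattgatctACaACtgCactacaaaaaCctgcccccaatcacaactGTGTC
Cyp2c50: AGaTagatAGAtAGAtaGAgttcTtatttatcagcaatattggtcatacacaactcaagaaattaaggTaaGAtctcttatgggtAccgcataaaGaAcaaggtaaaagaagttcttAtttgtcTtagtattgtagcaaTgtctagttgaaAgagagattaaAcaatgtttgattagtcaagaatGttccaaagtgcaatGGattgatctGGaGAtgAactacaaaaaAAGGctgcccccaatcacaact
These windows were 84.3% identical, with 30 mismatches and 10 gaps, and were 54.5% and 53.0% identical to that of Cyp2c29. Cyp2c29 (chr19:39286835-39287084, plus strand), the most abundant Cyp2c gene, and Cyp2c67 (chr19:39649043-39649292, minus strand), one of those higher with erythrodiol, are shown for motif matches, which are in capitals. Their windows end at a RefSeq start that lies inside the gene span used here, so that the last 41 bases of the Cyp2c29 window and the last 37 of the Cyp2c67 window fall within that span.
Cyp2c29: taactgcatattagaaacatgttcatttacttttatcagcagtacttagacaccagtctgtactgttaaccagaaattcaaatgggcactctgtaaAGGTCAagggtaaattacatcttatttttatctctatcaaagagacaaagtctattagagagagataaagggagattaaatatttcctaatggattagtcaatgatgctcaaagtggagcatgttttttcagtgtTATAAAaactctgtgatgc
Cyp2c67: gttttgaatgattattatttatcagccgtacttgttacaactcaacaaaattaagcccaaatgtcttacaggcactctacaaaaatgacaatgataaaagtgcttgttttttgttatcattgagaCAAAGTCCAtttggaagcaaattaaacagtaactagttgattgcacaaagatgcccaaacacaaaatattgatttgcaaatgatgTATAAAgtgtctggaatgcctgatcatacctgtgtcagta
In Cyp2c29 the capitals are AGGTCA, the half-site bound by many nuclear receptors, and TATAAA. In Cyp2c67 they are CAAAGTCCA, a form of the site of HNF4A, and TATAAA. Searched on both strands, TATAAA was in 18 of the 35 member windows (51.4%) and in 12.4% of 32851 windows of all genes. CAAAGTCCA was in 6 member windows (17.1%) against 0.384% of all, namely those of Cyp2c40, Cyp2c65, Cyp2c67, Cyp2c68, Cyp2c69 and Cyp2c70, several of which are near copies and are not separate instances. AGGTCA was in 17.1% against 14.0%, GTTAAT in 17.1% against 6.43%, the STAT site TTCNNNGAA in 2.86% against 7.02%, and the C/EBP site TTGCGCAA in none against 0.164%. The windows with GTTAAT and those with TATAAA also include near copies, such as Cyp2a4 and Cyp2a5, which are not separate instances. A match is a match of letters only.

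Because reads of near copies are hard to assign, shared sequence was counted as stretches of 100 bases that also occur in transcripts of another gene. Of the 40 members, 22 shared such stretches and 18 shared none. The largest shares were in Cyp2c40 (44.1%), Cyp2c69 (36.3%), Cyp2c67 (23.7%) and Cyp2c68 (19.8%), followed by Cyp2d10 (14.8%), Cyp2a5 (14.4%), Cyp2d11 (12.2%) and Cyp2a4 (11.2%). The counting program splits ambiguous reads between copies, and a count that is not whole shows such a split. This was seen in 23 members, 19 of which shared stretches. The median log2 ratio was 0.08 over the 19 genes with enough counts that shared stretches and 0.19 over the 14 that shared none. Reads mapped to a single gene made up 51.36 to 67.12% of clean reads in control libraries and 57.85 to 65.32% in erythrodiol libraries. The medians were 60.85% and 63.31%. Control replicates 1, 3 and 4, at 51.36, 52.68 and 54.17%, lay below all erythrodiol libraries. The part of this in the splits between near copies was not tested.

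As 1 sum, the family had counts of 1957526 (control) and 2275081 (erythrodiol). This was 1.59% of all counts (Wilson interval 1.59 to 1.60%) against 1.82% (1.82 to 1.83%), a 1.15-fold difference with a log2 ratio of 0.20 (0.19 to 0.20). Cyp2e1 alone held 40.9% of the family's counts in the control and 43.8% with erythrodiol, and without it the difference was 1.09-fold. The direction of the family sum stayed the same under other scalings, at 0.04 with TMM factors, 0.05 with median-of-ratios size factors and 0.12 relative to genes of like length. Without Cyp2e1 the sum changed sign, from 0.12 by column totals to -0.03 with TMM and -0.02 with median-of-ratios factors.

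This scale matters because most genes of the table had a log2 ratio above 0. The median over 13291 genes was 0.16 by column totals and 0.01 with TMM factors. Of the 33 members with enough counts, 23 were above 0, or 69.7%, against a background of 71.2% of genes. Their median log2 ratio was 0.15, with quartiles of -0.04 and 0.27, and that of all genes was 0.16, with quartiles of -0.04 and 0.32. Both medians and both pairs of quartiles were close to each other.

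The log2 ratio also followed gene length. The median over the 500 genes nearest in length was -0.13 at 1000 bases, 0.11 at 2000 bases and 0.28 at 5000 bases. The Cyp2 genes were short, with a median length of 1779 bases against 2856 for all genes, and the medians for genes of their lengths centred on 0.07. After subtraction of these medians, 19 of the 33 members were above 0, against 50.0% of genes, and the median of the members was 0.08.

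**Figure D1:**
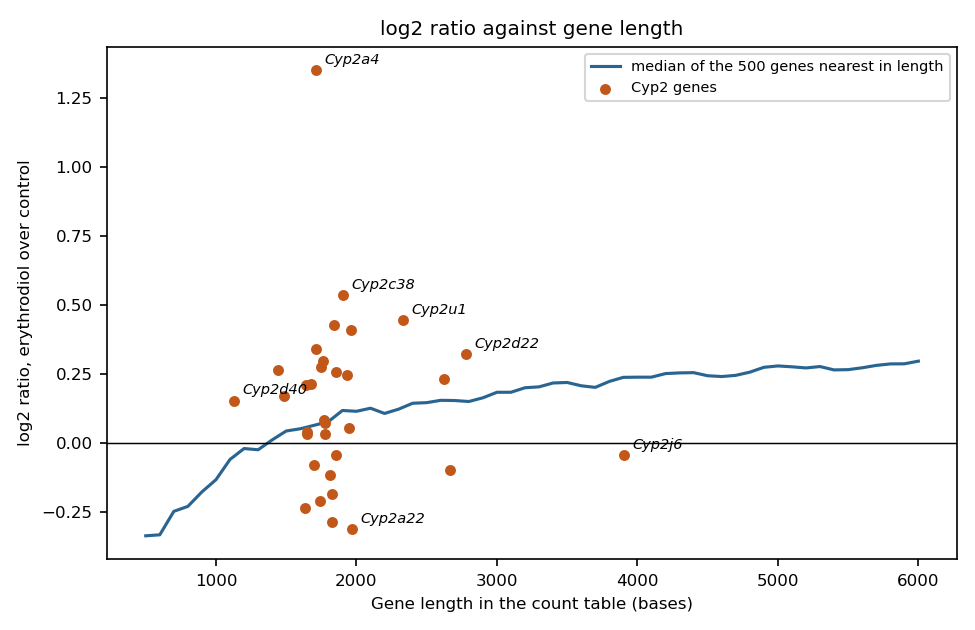
Each point is 1 of the 33 Cyp2 genes, with the length in the count table on the x axis (bases) and the log2 ratio of erythrodiol over control on the y axis, and the line is the median over the 500 genes nearest in length. The line crosses 0 between 1000 and 2000 bases, most Cyp2 genes lie near 1779 bases on both sides of it, and Cyp2a4 stands far above it at 1.35.

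Only Cyp2a4 was past 1.5-fold higher, 1 of 33 members against a background of 2.54% of genes, and none of the 33 was past 1.5-fold lower, against 3.13%. Relative to genes of like length, Cyp2a4 was again the 1 member past 1.5-fold higher (1.01% of genes) and no member was past it lower (3.46%). These shares are near the background. Of the members, 16 were higher and 10 lower under column totals, TMM factors, median-of-ratios factors and the subtraction of like-length medians alike, and 7 changed sign between these scalings. For several of these with under 1000 counts the counting interval included 0. TMM and median-of-ratios factors lower every log2 ratio by the same amount, and the like-length medians of the 10 lower members were above 0. That these members stayed below 0 was therefore fixed in advance and adds no support.

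**Figure D2:**
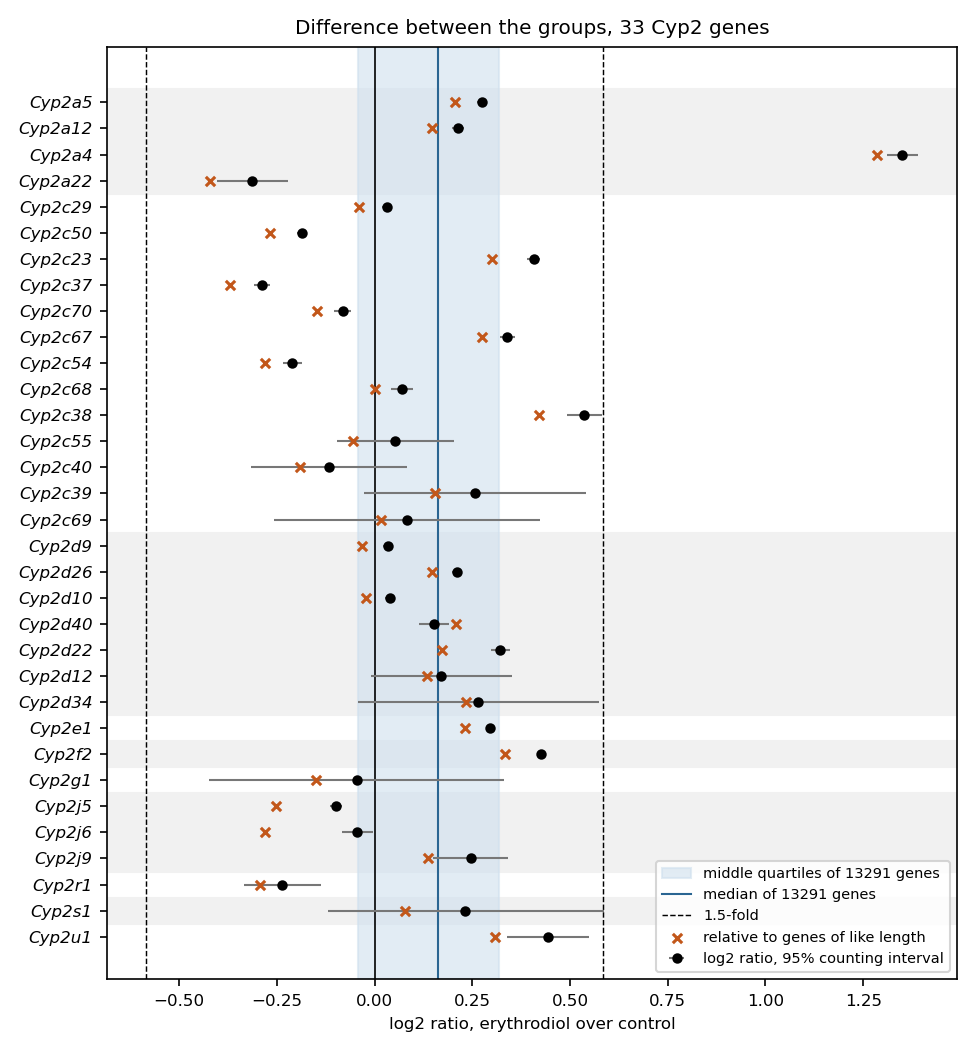
Black points are the log2 ratios of erythrodiol over control of 33 Cyp2 genes (x axis) with 95% counting intervals, crosses are the same values relative to genes of like length, the blue line and band are the median and the range between the quartiles of 13291 genes, and dashed lines mark 1.5-fold. Cyp2a4 alone lies beyond a dashed line, and Cyp2a22, Cyp2c37, Cyp2r1, Cyp2c54 and Cyp2c50 lie lowest.

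Levels between genes were compared as CPM per kilobase of length. Cyp2e1 led in both groups with 3703 in the control and 4546 with erythrodiol, and ranked 24 and 17 among all 13291 genes. Cyp2d9 followed with 719 and 735, and Cyp2c29 with 638 and 652, so that the first 3 places in the family were the same in both groups. Below them the order moved. Cyp2c50 went from place 5 to 8 of the family, Cyp2f2 from 6 to 4 and Cyp2a5 from 8 to 6. In the control, Cyp2d26, Cyp2c50, Cyp2f2 and Cyp2d10 stood between 439 and 453. The lowest of the 33 was Cyp2s1, at 0.388 and 0.456.

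**Figure D3:**
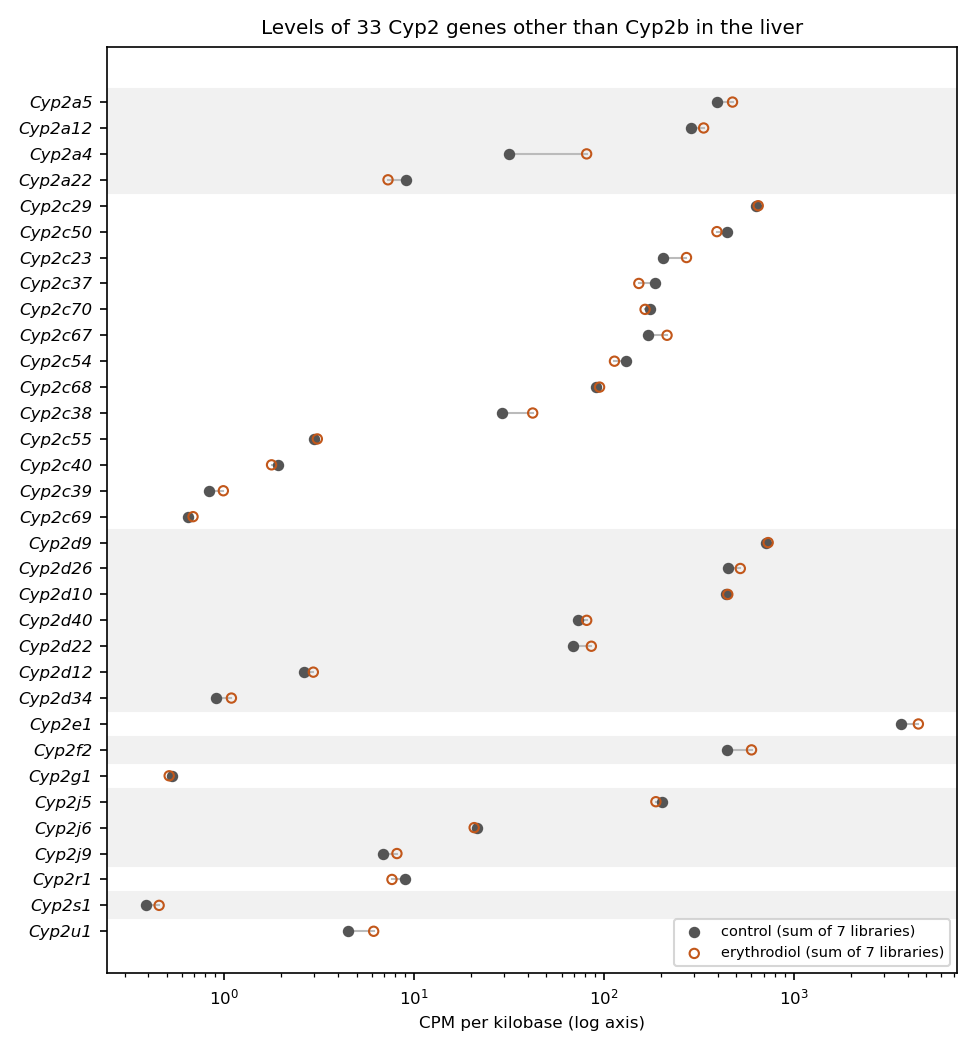
Level in CPM per kilobase (x axis, log axis) of 33 Cyp2 genes in the control sum (filled) and the erythrodiol sum (open), grouped by subfamily. Levels span from 0.388 for Cyp2s1 to 4546 for Cyp2e1, and the distance between the groups is widest for Cyp2a4.

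Cyp2e1, which oxidises ethanol, acetaminophen and small solvents (gene 13106, chr7:140763819-140774990), had 800408 control counts and 996935 erythrodiol counts. Its log2 ratio was 0.30 (0.29 to 0.30), and it stayed above 0 under the other scalings, at 0.14 with TMM factors and 0.23 relative to genes of like length. Cyp2e1 is a gene of hepatocytes around the central vein. The 10 other pericentral genes of the list had a median log2 ratio of 0.28 by column totals, 0.12 with TMM factors and 0.02 relative to genes of like length, and none was past 1.5-fold. Glul, the glutamine synthetase of that zone, was at 0.30, while Oat was at -0.34. The 10 periportal genes had medians of 0.11, -0.04 and 0.04 on the same scales, so that the order of the zones depended on the scale, and a difference between the zones was not tested. In this list 1 gene was past 1.5-fold higher by column totals, Pck1 of gluconeogenesis, at 0.65. Relative to genes of like length Pck1 was at 0.50, under 1.5-fold.

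**Figure D4:**
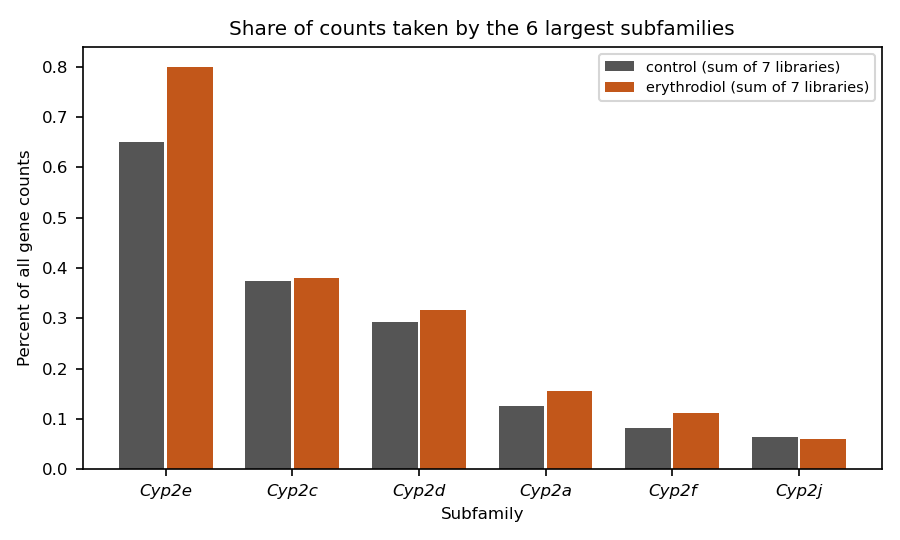
Bars are the percent of all gene counts (y axis, from 0) taken by the 6 largest subfamilies in the control and erythrodiol sums, with no replicates and hence no error bars. Cyp2e, which is Cyp2e1 alone, goes from 0.651% to 0.800%, while Cyp2c is near 0.375% and 0.381%.

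The Cyp2a subfamily had a sum of counts of 153281 (control) and 193303 (erythrodiol), a log2 ratio of 0.31 that stayed above 0 under the other scalings. The values of its 4 genes were uneven. Cyp2a4, a testosterone hydroxylase that is more abundant in female liver (gene 13086, chr7:26307192-26315088), had 6725 control counts and 17398 erythrodiol counts. This was 2.55-fold higher, with a log2 ratio of 1.35 (1.31 to 1.39), 1.19 with TMM factors and 1.28 relative to genes of like length. Cyp2a5, the coumarin hydroxylase that also acts on nicotine (gene 13087, chr7:26835339-26843264), had 84646 and 103895 counts, a log2 ratio of 0.27 (0.26 to 0.29).

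The coding sequences of Cyp2a4 and Cyp2a5 were 98.4% identical, with 23 mismatches, so that the split of reads between them is uncertain. Cyp2a4 took 7.36% of the counts of the pair in the control (Wilson interval 7.19 to 7.53%) and 14.3% with erythrodiol (14.1 to 14.5%). Added together the pair had a log2 ratio of 0.39, or 1.31-fold, which is under the fold used for a call. Cyp2a5 held 92.6% of the pair's control counts, so the sum lies near its value and cannot decide that of Cyp2a4. Cyp2a12, a testosterone hydroxylase, had 59712 and 70215 counts (log2 ratio 0.21). Its near copy Cyp2a22, 97.0% identical in the coding sequence, had 2198 and 1795 counts and the lowest log2 ratio of the 33 members, -0.31 (-0.40 to -0.22). Cyp2a22 took 3.55% of the counts of that pair in the control (Wilson interval 3.41 to 3.70%) and 2.49% with erythrodiol (2.38 to 2.61%).

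Cyp2c is the largest subfamily and acts on arachidonic acid, linoleic acid and retinoids as well as drugs. Its sum was nearly level, with counts of 460609 (control) and 474754 (erythrodiol). The log2 ratio was 0.02 by column totals but -0.13 with TMM factors and -0.06 relative to genes of like length, so no direction can be given for the sum. Its members lay on both sides. Of 13 genes with enough counts, 8 were above 0, where 71.2% of all genes were. Above their like-length median were 6 of the 13, against 50.0% of genes.

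Cyp2c37, Cyp2c54 and Cyp2c50, which oxidise arachidonic and linoleic acid, stand side by side on chromosome 19. They were lower by column totals, and the other scalings could only move them further down. Cyp2c37 (chr19:39992424-40012243) had 41911 control counts and 34843 erythrodiol counts, a log2 ratio of -0.29 (-0.31 to -0.27). Cyp2c54 had 28258 and 24780 counts (-0.21), and Cyp2c50 had 100815 and 89976 (-0.19). Together the 3 genes were at 0.862 of the control level, with a log2 ratio of -0.21 by column totals and -0.37 with TMM factors. Cyp2c37 and Cyp2c50 are 96.1% identical in coding sequence and shared 4.70% and 9.40% of their 100-base stretches with other genes. Cyp2c70, which makes the muricholic bile acids of mice and is the next gene on the chromosome, had 36553 and 35053 counts (-0.08).

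On the other side, Cyp2c38 had counts of 6824 (control) and 10043 (erythrodiol), a log2 ratio of 0.54 (0.49 to 0.58) and a fold of 1.45, just under the fold used for a call. Its RefSeq model lies within the span of Cyp2c39, which oxidises retinoic acid and had 190 and 230 counts (0.26, -0.03 to 0.54). Cyp2c23, an arachidonic acid epoxygenase that lies apart from the main cluster (chr19:44005022-44029256), had 49639 and 66812 counts (0.41, 0.39 to 0.42) and shared no stretch with another gene. Cyp2c67 had 35848 and 46027 counts (0.34), while its near copy Cyp2c68 had 19806 and 21102 (0.07). With Cyp2c40 and Cyp2c69 added, the 4 near copies were at 0.25. The part of read splitting in the difference between them was not tested.

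Cyp2c29, which epoxidises arachidonic acid, had 139473 control counts and 144578 erythrodiol counts, and its log2 ratio was 0.03 by column totals and -0.13 with TMM factors. Cyp2c55 had 717 and 755 counts, Cyp2c40 had 430 and 403, and Cyp2c69 had 141 and 152. The counting intervals of these last 3 genes include 0. Cyp2c65 and Cyp2c66 had 3 counts and 1 count in the control and none with erythrodiol, so that no fold can be given.

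**Figure D5:**
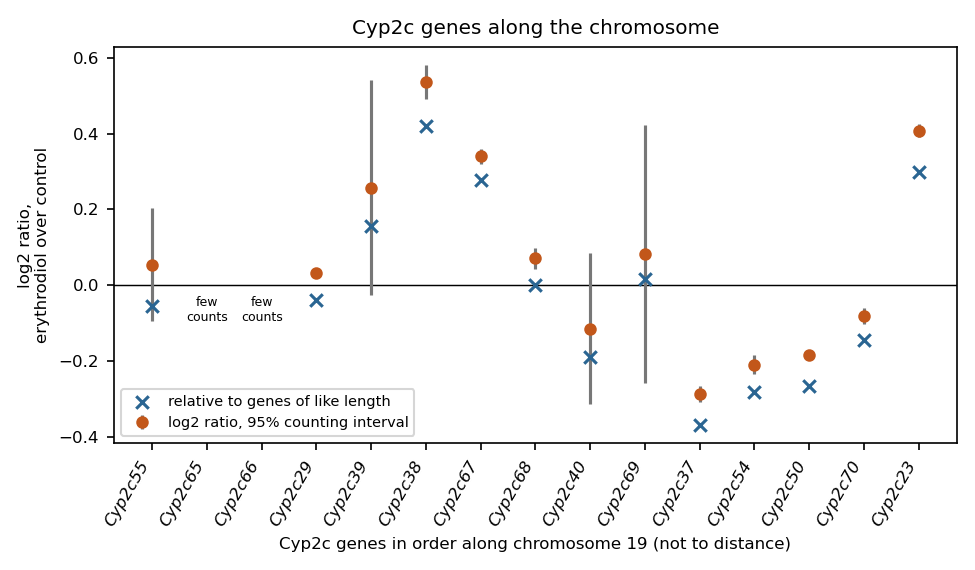
The 15 Cyp2c genes are placed in their order along chromosome 19 (x axis, not to distance), with the log2 ratio of erythrodiol over control (y axis), 95% counting intervals and, as crosses, the values relative to genes of like length. Cyp2c37, Cyp2c54, Cyp2c50 and Cyp2c70, at positions 11 to 14, lie below 0, and Cyp2c38, Cyp2c67 and Cyp2c23 lie highest.

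The Cyp2d genes, which belong to the subfamily of the human drug-metabolising enzyme CYP2D6, had counts of 360518 (control) and 393576 (erythrodiol). The log2 ratio of the sum was 0.11 by column totals and changed sign to -0.05 with TMM factors. The 7 genes with enough counts were all above 0 by column totals, at 0.03 to 0.32, where 71.2% of all genes were above 0. Relative to genes of like length 5 of the 7 were above 0, against 50.0% of genes. Cyp2d22 had 23572 and 29885 counts (0.32, 0.30 to 0.35) and Cyp2d26 had 91541 and 107515 (0.21), and both stayed above 0 under the 4 scalings. Cyp2d9, a testosterone hydroxylase that is more abundant in males, had 145789 and 151379 counts (0.03), and Cyp2d10 had 88791 and 92547 (0.04). Both turned to -0.12 with TMM factors. Cyp2d40 had 10160 and 11462 counts (0.15), and was near 0 with TMM factors. Cyp2d12 had 479 and 547 counts and Cyp2d34 had 161 and 197, with intervals that include 0. Cyp2d11 had 25.3 and 44.1 counts, too few for the fold to be called.

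Cyp2f2, known for activating naphthalene (gene 13107, chr7:27119955-27133660), had 101181 control counts and 138027 erythrodiol counts. The log2 ratio was 0.43 (0.42 to 0.44), or 1.34-fold, and 0.33 relative to genes of like length. It shared no 100-base stretch with another gene, and it moved from rank 149 to rank 98 among all genes by level. Cyp2u1, which hydroxylates long-chain fatty acids, had 1295 and 1787 counts (0.44, 0.34 to 0.55). Cyp2s1 had 125 and 149 counts (0.23, -0.12 to 0.59).

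The Cyp2j genes encode epoxygenases of arachidonic acid. Their sum went from 78172 counts in the control to 74861 with erythrodiol, a log2 ratio of -0.08 (-0.10 to -0.07). The other scalings could only move this value further down. Cyp2j5 made up 84.7% of it, with 66205 and 62709 counts (-0.10), and Cyp2j6 had 10283 and 10119 (-0.04). Cyp2j6 was the longest member with enough counts, 3902 bases, and relative to genes of like length it was at -0.28. Cyp2j9 differed in sign from both, with 1636 and 1968 counts (0.25, 0.15 to 0.34). Cyp2j8 had 23 and 36 counts, Cyp2j13 had 22 and 29.1, and Cyp2j11 had 3 and 0.

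Cyp2r1, which hydroxylates vitamin D in the liver, had counts of 1816 (control) and 1565 (erythrodiol), a log2 ratio of -0.24 (-0.33 to -0.14). Cyp2g1, a gene of the olfactory mucosa, had 121 and 119 counts. Cyp2t4 had 0 control counts and 5 erythrodiol counts, and its counting interval includes no difference, so no fold is given.

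The members were then set beside genes of their pathway. Of 15 genes for electron supply and heme, 2 were past 1.5-fold higher and 1 past 1.5-fold lower by column totals. Over all genes these shares were 2.54% and 3.13%. The median log2 ratio of the 15 was 0.20 (0.04 with TMM factors). Cytochrome b5, Cyb5a, which passes electrons to some cytochromes, was lower, with counts of 134027 (control) and 90395 (erythrodiol) (-0.59). Cyb5b of the same list was at 0.39. The 2 higher ones, named after their values were seen, were Por, the reductase, with 23187 and 36205 counts (0.62), and Alas1, the first enzyme of heme synthesis, with 26953 and 44015 (0.69). Relative to genes of like length Cyb5a was at -0.35, Por at 0.47 and Alas1 at 0.53, so that none of them was past 1.5-fold. Por is also the 1 of 12 targets of xenobiotic receptors outside Cyp2 that was past 1.5-fold by column totals. The median of those 12 was 0.17, or -0.07 relative to genes of like length.

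Among 13 nuclear receptors and other regulators, 12 were above 0 by column totals, where 71.2% of all genes were, and 1 was past 1.5-fold higher, with a median of 0.32 (0.16 with TMM factors). Relative to genes of like length 10 of the 13 were above 0, against 50.0% of genes. Hnf4a, a main regulator of hepatocyte genes, was at 0.21, Rxra at 0.35, Ppara at 0.51 and Cebpa at -0.11. The 1 past 1.5-fold, named after its value was seen, was Onecut1, a liver transcription factor, with 947 and 1975 counts (1.04). The xenobiotic receptors Nr1i3 and Nr1i2, also named after their values were seen, were at 0.30 and 0.09 by column totals and at 0.25 and -0.06 relative to genes of like length.

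Of the sex-dependent members, the 3 that are male-predominant (Cyp2d9, Cyp2f2 and Cyp2u1) had a median of 0.43 and none was past 1.5-fold. The 4 that are female-predominant (Cyp2a4, Cyp2c39, Cyp2c40 and Cyp2c69) had a median of 0.17, with 1 past 1.5-fold higher. The counting intervals of Cyp2c39, Cyp2c40 and Cyp2c69 include 0. With TMM factors the male-predominant median was 0.27 and the female-predominant one 0.01. Relative to genes of like length they were 0.31 and 0.09, and a difference between these lists was not tested. In the excluded Cyp2b subfamily all 3 genes with enough counts were past 1.5-fold, in both directions. Of all genes, 2.54% were past it higher and 3.13% lower. The female-predominant Cyp2b9 was lower, with 6015 control counts and 1524 erythrodiol counts and a log2 ratio of -2.11 relative to genes of like length, opposite in sign to Cyp2a4. Cyp2b13 was also lower, with 336 and 27.0 counts, while Cyp2b10, a target of the receptor Nr1i3, was higher, with 43.2 and 134 counts. All 11 genes of growth hormone and sex hormone signalling were above 0 by column totals, where 71.2% of all genes were. Their median was 0.30. Relative to genes of like length 7 of the 11 were above 0, against 50.0% of genes, with a median of 0.07. The 2 past 1.5-fold by column totals, Cish (0.75) and Socs2 (0.65), were named after their values were seen and are feedback inhibitors of cytokine signalling. Over all genes 2.54% were past 1.5-fold higher. Relative to genes of like length Cish was at 0.57 and Socs2 at 0.54, both under 1.5-fold.

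In other cytochrome families, 0 of 3 Cyp1, 0 of 5 Cyp3 and 0 of 15 Cyp4 genes with enough counts were past 1.5-fold. Medians were 0.13 for Cyp1, -0.20 for Cyp3 and 0.17 for Cyp4. All 5 Cyp3 genes were below 0 by column totals, while 71.2% of all genes were above 0. They include Cyp3a11, the most abundant, with counts of 431019 (control) and 404688 (erythrodiol) (-0.11). Against the 31 genes of these families no difference was tested.

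Assembled transcripts that the study judged new and coding, pooled over all libraries, were found for 16 members, 25 transcripts in all, of which Cyp2d12 had 6. Among genes with enough counts this was 45.5% of members and 35.8% of all genes. None of the 16 deposited splicing events lay in a member.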

How the data were processed

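RNA-seq of 14 liver RNA pools, 7 per group, was analysed with groups taken from the labels. The submitters' processing notes name HISAT, StringTie, Cufflinks, GATK, Bowtie2 and RSEM, with versions not given in the sources used here. The authors deposited expected counts per gene estimated with RSEM, 1 value per group, which the column totals show to be sums over the libraries and which are not normalized. The authors also deposited counts of clean reads and percent of reads mapped to genes per library. The columns of the authors' own comparison (log2 ratio, p-value, q-value and direction) were not used. Summing hides any library that stands apart and makes precision a matter of counting only.

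Ratios were computed from group sums scaled by column totals with a pseudocount of 0.5. Intervals are exact conditional Poisson intervals at 95%, and shares have Wilson intervals. Genes with at least 100 counts in both groups together entered counts and medians, and 1.5-fold was the threshold. No fold was given where a group had 0 counts. Like length means the 500 genes nearest in length. TMM factors (edgeR 4.0.16) and size factors (DESeq2 1.42.0) were alternatives for scaling and gave no test. Coordinates and the 250 bases before each start are from RefSeq, GRCm38.p6, and matched by gene ID or symbol. Coding sequences and shared stretches of 100 bases are from GENCODE transcripts. Scripts were tested on simulated data. Computations used R 4.3.3 and, in Python 3.11.15, Biopython 1.88, scipy 1.17.1, pandas 2.3.3, matplotlib 3.10.9 and numpy 2.4.6.

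The design had allowed for counts per library, and with group sums no test was made. All 40 members are named, and from each other list at most 4 genes, those of most counts, with exceptions stated. The members and lists were chosen with earlier results of these data known.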

Additional observations from a re-analysis of the deposited data

Results flagged for a closer look

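The percent of clean reads mapped to genes was 64.33 in control replicate 3, farther below the other 6 control libraries than the spread among them allows by Dixon's criterion. The control libraries ranged up to 81.43% with a median of 75.3%, and the erythrodiol libraries from 72.96 to 76.13%. Chance marks about 1 in 20 groups in this way. The gene values are sums that include this library, and could not be computed without it.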

How the results depend on the processing

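The number of members past 1.5-fold higher was 1 with TMM factors, median-of-ratios size factors, like-length subtraction, a pseudocount of 5 and a 2-fold threshold. It was 3 with a minimum of 10 counts and 4 with no minimum. The number past 1.5-fold lower was 0 under the same settings except with no minimum, where it was 3, all with at most 3 counts. The median log2 ratio of the members (0.15) was -0.0037 with TMM factors, 0.0073 with median-of-ratios factors, 0.079 relative to genes of like length and 0.19 with a minimum of 10 counts. The median of all genes moved from 0.16 to 0.01 and 0.02 under these 2 sets of factors. The log2 ratio of the family sum (0.20) was 0.039 with TMM factors, 0.050 with median-of-ratios factors, 0.12 relative to genes of like length, 0.12 without Cyp2e1, 0.15 as the median of the members and, added after seeing the data, 0.13 with Mup genes left out of the column totals. The share of counts, higher by 0.232 percentage points, was higher by 0.0464 with TMM factors, 0.0594 with median-of-ratios factors and 0.0835 without Cyp2e1, and a like-length value cannot be given for it. Of 205 values of single genes and subfamilies under alternatives, 75 stayed within the counting interval of the main value, 130 did not, and no called gene changed sign. Adding near copies together was also chosen after seeing the data. No paired analysis was possible because gene values are group sums. For the same reason no library could be left out. Depth limits the genes with few counts, and the part of uneven depth between control libraries in the sums was not tested.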
